A study of Mus musculus with 20 samples.

Results

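Sensory neurons of the dorsal root ganglion use neuropeptides beside glutamate. The 10 genes described here encode the precursors of such peptides: Gal, Calca, Calcb, Tac1, Adcyap1, Sst, Nppb, Nmb, Cartpt and Uts2b, taken by symbol from the 55416 genes counted, and all 10 passed the filter on low counts. They were chosen because earlier results of these data showed differences between genotypes in some of them, and they were grouped by each of the 2 genotype records that the study deposited. The genotype differences below, with their dependence on formalin, are therefore a description of these animals. Where members past the threshold of a fit (adjusted p of 0.05) are counted for genotype, the count stands beside the share of all genes, with no p-value, and nothing is read from it. Tests are given for formalin and for sex.

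Polyadenylated RNA was sequenced from lumbar dorsal root ganglia (L3 to L5), where the cell bodies of sensory neurons lie, of 10 adult C57Bl6 mice. All animals carried floxed alleles of Prdm12, which encodes a zinc finger protein needed for nociceptors to form, and had received tamoxifen, which switches on an inducible Cre, 1 month before. Animals titled control are described as P12 Fl/Fl without Cre. Those titled icKO (inducible conditional knockout) carried AdvCreERT2 in their genotype field, a Cre under the promoter of the sensory neuron gene Avil, whereas the series text names Rosa26CreERT2, which would act in most cell types. Each animal gave 1 library labelled formalin, an irritant that causes inflammatory pain, and 1 labelled noninjected. No source used here gives the dose, site or timing of formalin.

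Of the 20 libraries, 19 were used, with 11763893 to 22392635 counts, and the library labelled icKO 1 formalin (2829 counts) was left out. CPM here means reads counted for a gene per 1000000 of the library's TMM-adjusted total, and animal totals are both libraries of an animal summed (for the animal labelled icKO 1, its noninjected library alone). Of 12 sensory neuron genes, all were tested, and their summed level was 12240 to 21540 CPM in the libraries. The summed level of 8 genes listed for spinal cord was 66.9 to 186.7 CPM per library. Of these, Slc17a7 was at 53.9 to 168.7, Aqp4 at 13.7 to 19.9 and Gad1 at 0.79 to 1.23 CPM over the animal totals. Mnx1, Chat, Slc6a5, Mog and Opalin were at 0.48 CPM or less. The sum thus rests mostly on Slc17a7 and is no measure of spinal cord tissue. What part spinal cord tissue has in any value was not tested. The labels number the animals but give no litter or dissection day, so p-values measure the spread between these samples, part of which may be technical.

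The 2 records of genotype, the sample title and the name of the deposited count file, contradict each other for 4 animals: those labelled control 1 and control 4 have icKO in the deposited name, and those labelled icKO 2 and icKO 3 have control. Animals are called by their titles here, as "labelled", and the other record is called the deposited name. Prdm12, the targeted gene, separated the animals by the deposited name. It was at 73.2 to 100.4 CPM in the 5 animals named control and at 18.0 to 33.2 CPM in the 5 named icKO, and it goes against the title in the 4 animals above. Tsfm, which lies near Avil in gene order, split the same way, at 11.5 to 13.7 CPM in animals named control and 36.9 to 47.7 CPM in those named icKO. Each direction by title below therefore mixes animals with high and low Prdm12.

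Neuropeptide precursors are cut by proteases and packed into dense-core vesicles, and the peptides act on G protein-coupled receptors near and far from the release site. In the ganglion, CGRP (from Calca and Calcb), substance P (from Tac1) and PACAP (from Adcyap1) mark peptidergic nociceptors, and Nppb and Sst mark neurons that signal itch. Galanin, from Gal, is low in intact ganglia and is known to increase after nerve injury.

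Many neuropeptide genes respond to cyclic AMP through a CRE element in the promoter, so the stretches before the start sites of 4 members are shown: Gal, Uts2b and Cartpt, whose levels differed most by title, and Sst, which differed by sex. Each is the 250 bases before the start, 5′ to 3′ on the gene's own strand, from RefSeq on build GRCm38.p6. Capitals mark TGACG (the CRE core), TGACGTCA (the full palindrome, which holds the core on both strands) and TATAAA, each searched on both strands. Gal lies at chr19:3414545-3414794, Uts2b at chr16:27370240-27370489, Cartpt at chr13:99900684-99900933 and Sst at chr16:23890845-23891094, all on the minus strand.
Gal: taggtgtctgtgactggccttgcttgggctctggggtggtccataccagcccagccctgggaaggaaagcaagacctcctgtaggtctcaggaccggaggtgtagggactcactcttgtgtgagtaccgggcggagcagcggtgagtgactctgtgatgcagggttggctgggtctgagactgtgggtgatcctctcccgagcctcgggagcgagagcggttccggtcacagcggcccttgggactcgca
Uts2b: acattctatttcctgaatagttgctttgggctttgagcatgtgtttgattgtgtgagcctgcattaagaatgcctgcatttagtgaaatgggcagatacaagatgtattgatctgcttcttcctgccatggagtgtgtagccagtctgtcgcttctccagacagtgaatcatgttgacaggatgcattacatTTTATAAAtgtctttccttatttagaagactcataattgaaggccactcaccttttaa
Cartpt: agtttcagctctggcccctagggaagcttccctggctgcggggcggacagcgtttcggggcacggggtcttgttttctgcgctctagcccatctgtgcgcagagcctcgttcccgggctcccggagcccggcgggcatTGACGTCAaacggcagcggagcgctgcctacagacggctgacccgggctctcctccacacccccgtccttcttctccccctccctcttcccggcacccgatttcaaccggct
Sst: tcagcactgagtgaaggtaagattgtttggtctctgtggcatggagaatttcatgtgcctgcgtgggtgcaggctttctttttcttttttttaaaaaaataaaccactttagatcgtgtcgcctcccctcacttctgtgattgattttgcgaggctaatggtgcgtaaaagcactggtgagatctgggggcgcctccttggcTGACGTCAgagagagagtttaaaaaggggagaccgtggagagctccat

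A promoter was found for 9 of the 10 members by symbol (Calcb had none). In windows of 300 bases, from 250 before to 50 after the start, the full TGACGTCA lay in 2 members, Sst at 48 and Cartpt at 112 bases before the start. It lay in 1.79% of all 32851 promoters. The core TGACG lay in 6 members (Gal, Calca, Tac1, Adcyap1, Sst, Cartpt) and in 20.8% of all promoters, and in Gal it is 20 bases after the start, outside the stretch shown. TATAAA lay in 3 members (Adcyap1, Nppb, Uts2b) and in 13.6% of all promoters. In Uts2b it overlaps its own reverse complement, which gives the run TTTATAAA.

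Per kilobase of annotated exon, Calca had the highest mean level over the 10 animal totals, 912 CPM per kb, and Uts2b the lowest, 6.76 CPM per kb. Between them stood Nmb at 156, Calcb at 133, Tac1 at 127, Adcyap1 at 35.0, Gal at 30.2, Nppb at 24.7, Cartpt at 22.8 and Sst at 8.98 CPM per kb. Calca was above Nmb and Tac1 above Adcyap1 in every animal, whereas the other neighbours in this order had overlapping ranges over animals. The deposited counts per gene cannot tell calcitonin from CGRP, which are spliced from the same gene, Calca. Calcb shares 12 of its 1260 stretches of 50 bases with Calca, so few reads could be split between them. Nmb overlaps the gene Sec11a over 163 exonic bases, and its count is uncertain to that extent.

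The spread over animals set the members apart. The coefficient of variation of the animal totals was 136% for Uts2b, 56.3% for Gal and 53.5% for Cartpt. It was 12.4% for Nmb, 13.2% for Calca and 17.4% for Nppb.

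**Figure D1:**
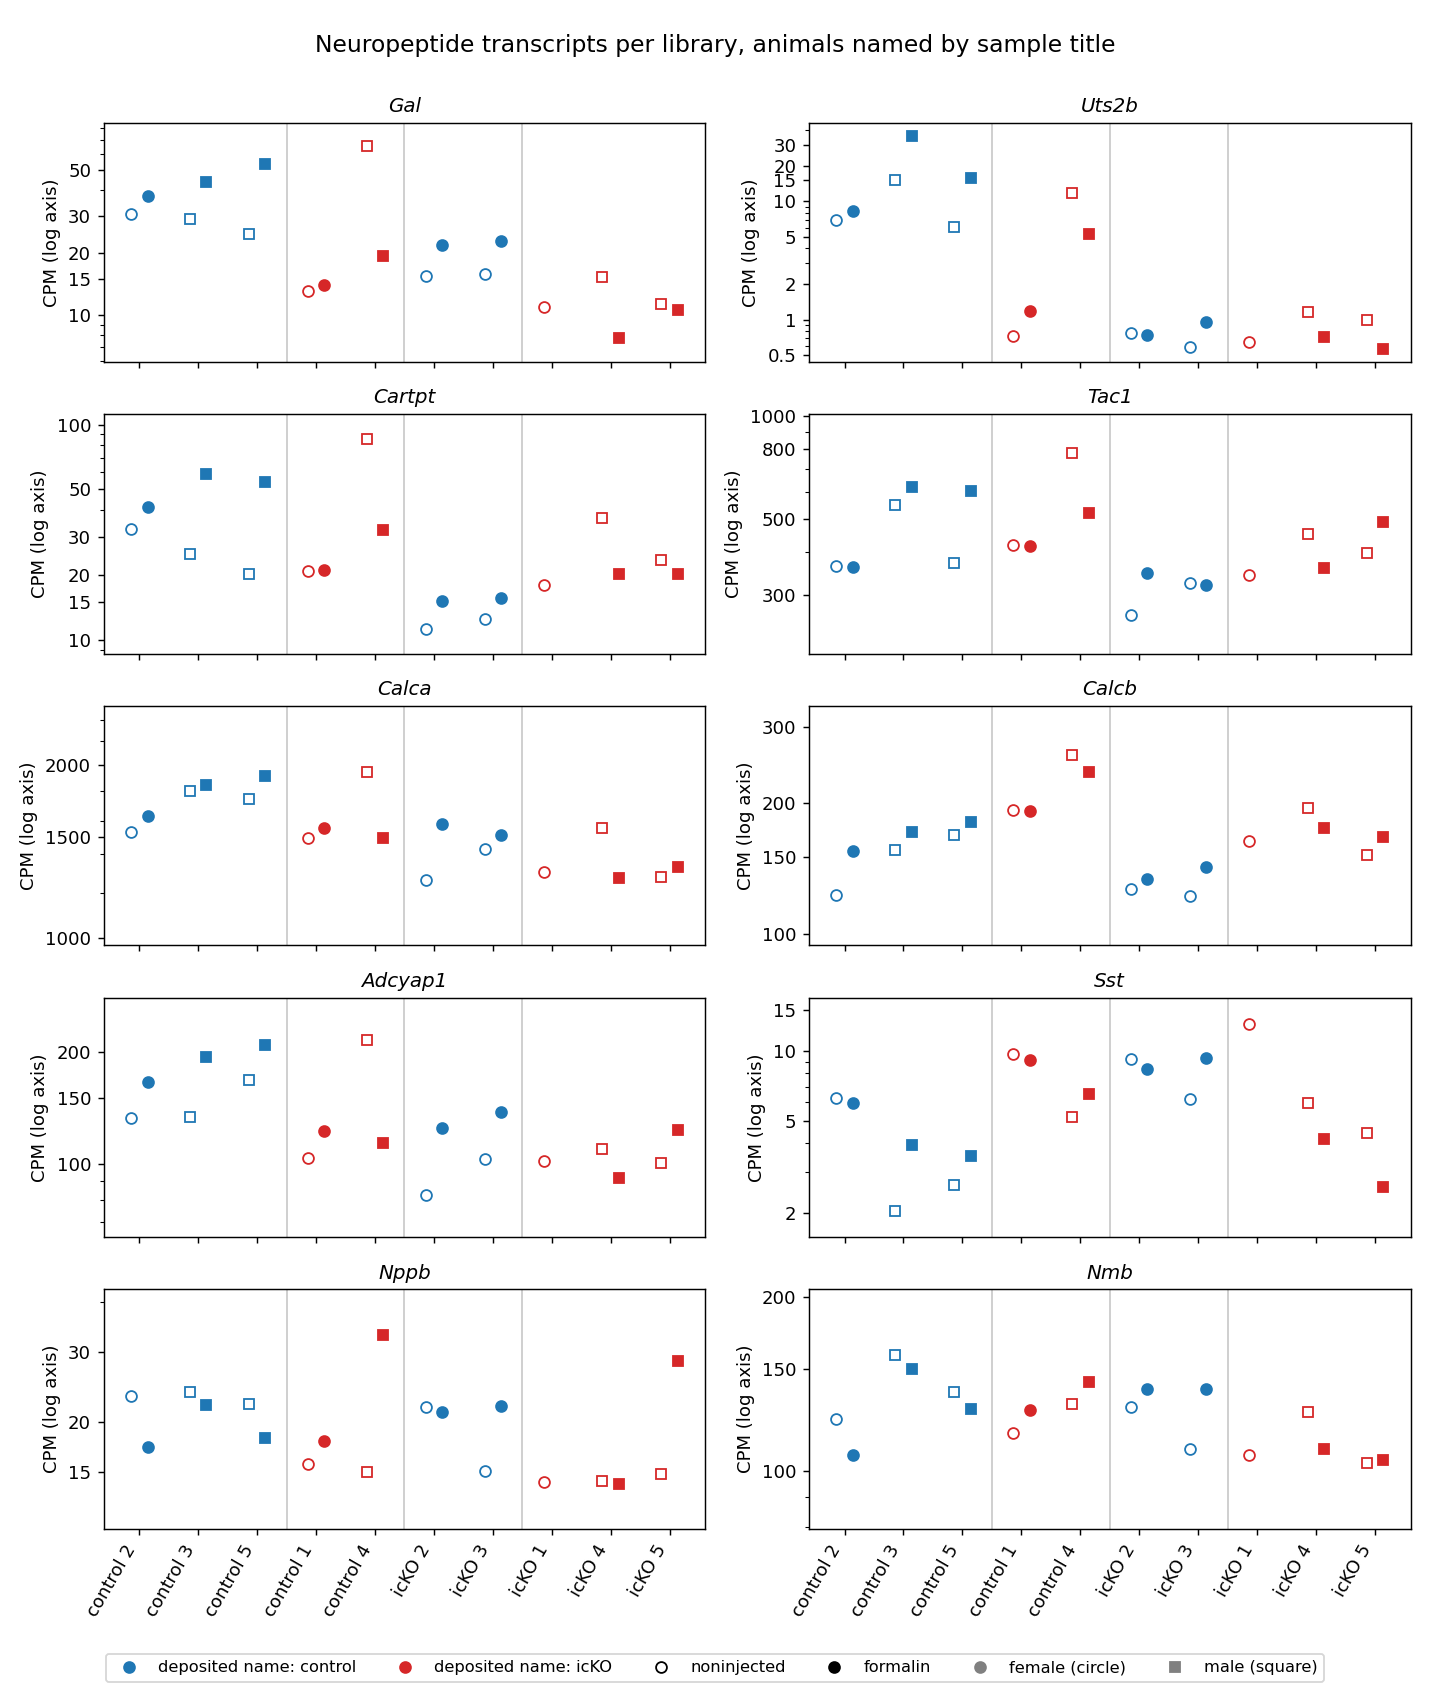
Level of each neuropeptide transcript (CPM, log axis) in each of the 19 libraries, with animals on the x axis named by title and grouped by both records (from left: control in both, titled control and named icKO, titled icKO and named control, icKO in both). Uts2b stays at 1.18 CPM or less in every library of the animals labelled icKO and in those of control 1, and the noninjected library labelled control 4 has the highest Gal, Cartpt, Tac1, Calcb, Calca and Adcyap1.

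Uts2b, which encodes urotensin 2B, a vasoactive peptide related to somatostatin, was present in 4 of the 10 animals and nearly absent in the others. Its animal totals were 7.52, 24.4, 9.12 and 10.6 CPM in the animals labelled control 2, 3, 4 and 5, and 0.98 CPM in control 1. In those labelled icKO 1 to 5 they were 0.64, 0.75, 0.78, 0.88 and 0.76 CPM, from 8 to 19 counts in each library. The titles separate these values without overlap (10.5 ± 8.59 against 0.76 ± 0.088 CPM, SD, n = 5 and 5), with control 1 just above the icKO range. The deposited names do not, since control 4, named icKO, is high and icKO 2 and icKO 3, named control, are low. In noninjected libraries alone the titles overlapped too. Control 1 was there at 0.73 CPM (13 counts), inside the labelled icKO range of 0.59 to 1.17 CPM. In bulk tissue, fewer cells that make a peptide and less RNA per cell cannot be told apart.

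Gal showed steps over both records. Its animal totals were 33.7, 35.6 and 38.1 CPM in the animals labelled control 2, 3 and 5, which are control in both records. They were 18.9 and 19.4 CPM in icKO 2 and icKO 3, which are named control, and 10.8, 10.5 and 10.9 CPM in icKO 1, 4 and 5, which are icKO in both. The 2 animals titled control and named icKO lay far apart, control 1 at 13.6 CPM and control 4 at 46.4 CPM. The groups overlap in both records because of these 2 animals: control 1 lies among the labelled icKO and control 4 above all named control.

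The value of control 4 came from 1 library. Its noninjected library held Gal at 65.3 CPM, where the other 18 libraries were at 7.72 to 53.5 CPM, and its formalin library held 19.3 CPM. In that noninjected library Cartpt was at 85.8, Tac1 at 779.6, Adcyap1 at 215 and Uts2b at 11.8 CPM, while Prdm12 was at 38.1 CPM. Its summed level of the sensory neuron genes was 15210 CPM and of the satellite glia genes 4800 CPM, both inside the range of all libraries. Whether its dissection or its labelling differed was not tested.

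Cartpt, which encodes the CART peptide, followed the title. It was at 36.4, 40.4, 63.9 and 36.2 CPM in the animals labelled control 2, 3, 4 and 5 and at 20.9 CPM in control 1. In icKO 1 to 5 it was at 17.7, 13.3, 14.1, 26.3 and 21.7 CPM. Control 1 lies inside the icKO range, and the other 4 labelled controls lie above it. Among the formalin libraries alone, the labelled controls (21.0 to 59.0 CPM) and the labelled icKO (15.1 to 20.2 CPM) did not overlap.

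The peptidergic nociceptor peptides differed less. Calca was at 1530, 1567, 1819, 1765 and 1810 CPM in the animals labelled control 1 to 5 and at 1288, 1435, 1469, 1367 and 1303 CPM in icKO 1 to 5, so the titles separate it without overlap by a narrow gap. Adcyap1 was at 114.7, 146.8, 160.7, 173.5 and 185.8 CPM in labelled controls and at 100.9, 105.7, 121.6, 97.6 and 112.8 CPM in labelled icKO. Only control 1 falls within the range of the labelled icKO. Tac1 ranged over 362 to 674 CPM in labelled controls and 308 to 447 CPM in labelled icKO, and these ranges overlap. By title, Calca and Uts2b were the members without overlap in the animal totals (2 of 10), as were 1.37% of the 17395 genes with a mean of at least 0.5 CPM. By deposited name it was 0 of 10 members, against 4.39% of genes. Past the threshold in edgeR's fits of 1 record were 0 of 10 members by title, with 0.0% of genes, and 0 of 10 by name, with 1.08%. DESeq2 put Calca, Cartpt, Uts2b and Adcyap1 past it by title, all lower, with 0.329% of genes, and Sst by name, higher, with 4.15%. Without the noninjected library of control 4, edgeR put Gal past it by name (-1.22), with 0.997% of genes. The members were chosen on these contrasts, and nothing is read from these shares.

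Calcb went the other way over the deposited names. It was at 129.9 to 172.9 CPM in the 5 animals named control and 159.8 to 249.3 CPM in the 5 named icKO, and the ranges overlap. Its log2 fold in a fit of the name alone was 0.32, and -0.13 with the title number as a block. The lowest values, 129.9 and 132.6 CPM, were in icKO 2 and icKO 3. Calcb thus parted from Calca, which was lower in animals named icKO (1451 ± 200.2 against 1620 ± 184.2 CPM, SD, n = 5 and 5). Over the 19 libraries, Calcb and Prdm12 had a Pearson correlation of log2 CPM of -0.49, and Gal and Prdm12 one of 0.69. Libraries of the same animal are among these points.

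A fit with both records at once, the deposited name and the title, with sex as a covariate, gave each record its own log2 fold (icKO minus control) on the 10 animal totals. For the title, the folds were -2.85 (SE 0.42) for Uts2b, -1.04 (SE 0.30) for Gal and -0.99 (SE 0.21) for Cartpt. Adcyap1 was at -0.42 (SE 0.09), Tac1 at -0.39 (SE 0.10), Calcb at -0.27 (SE 0.08) and Calca at -0.25 (SE 0.08). For the name, they were -1.58 (SE 0.42) for Uts2b, 0.58 (SE 0.17) for Sst and 0.38 (SE 0.08) for Calcb. Prdm12 itself was at -1.85 (SE 0.13) for the name and -0.39 (SE 0.13) for the title.

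A mark of 3 standard errors from 0 was picked after the values were seen. For the title alone 5 members lay past it (Gal, Calca, Tac1, Adcyap1, Cartpt). For the deposited name alone 1 did (Sst, higher in animals named icKO). For both 2 did (Uts2b lower in each, Calcb lower by title and higher by name), and Nppb and Nmb for neither. The name folds of Gal (-0.68, SE 0.30) and Adcyap1 (-0.23, SE 0.09) were also negative but short of the mark. These genes are therefore not shown to follow the title only. With the title number as a block, the name fold of Sst turned from 0.58 to -0.10 and that of Calcb went from 0.38 to 0.11, and without the sex term that of Sst was 0.31. The median fold of the 10 members was -0.33 for the title and -0.16 for the name, where the medians of all 19956 genes tested were 0.01 and 0.0. Those of the 10 peptidergic nociceptor genes were -0.33 and -0.11. In edgeR's quasi-likelihood fit, 0 of 10 members passed the threshold for either term, as did 0.0% of genes for the title and 0.752% for the name. DESeq2 put 6 members past it for the title, all lower, and 0.316% of genes, and 2 for the name, with 2.68% of genes.

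These terms rest on few animals. Without the noninjected library of control 4, the name fold of Gal was -1.05 (SE 0.09), past the threshold along with 0.718% of genes, and its title fold was -0.70, also past it with 0.0152% of genes. Without the animal labelled control 1, the name fold of Gal was -0.25 (SE 0.26), and the title folds of Uts2b (-3.38) and Cartpt (-1.37) were past the threshold, with 0.0559% of genes. Without icKO 5, the name fold of Calcb (0.41) was past it, with 0.896%. Control 1 and control 4 are the only animals titled control and named icKO, so they alone separate the records on that side.

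**Figure D2:**
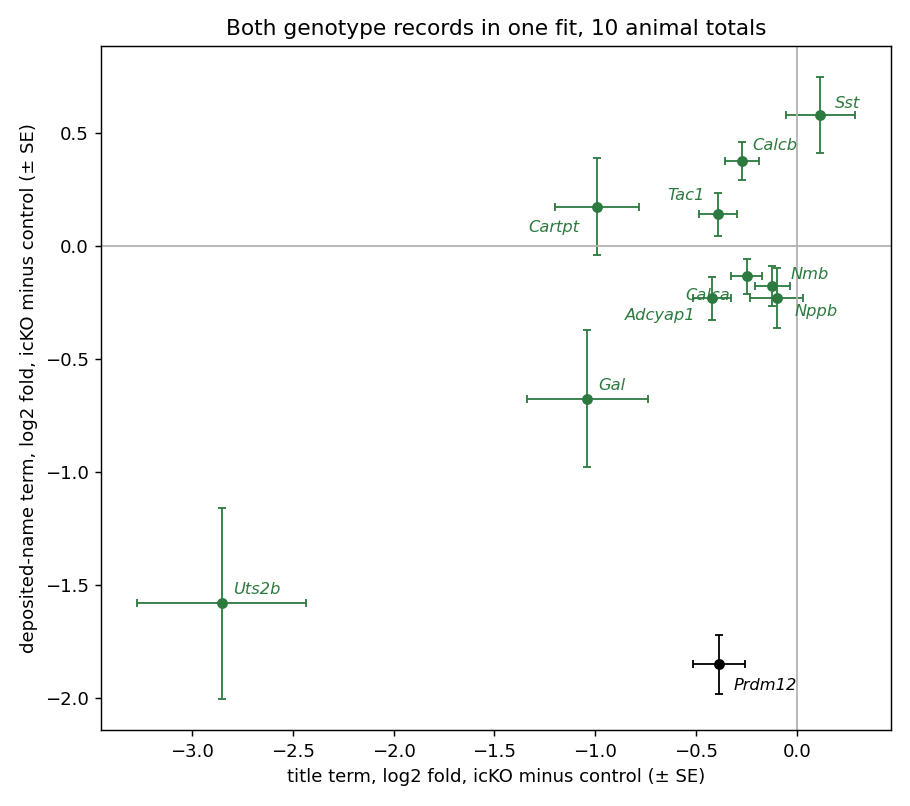
Title term (x axis) against deposited-name term (y axis) of the fit with both records, as log2 fold of icKO minus control, with standard errors, for the 10 members and Prdm12. Prdm12 lies far down the name axis at -1.85, Cartpt lies along the title axis at -0.99, and Calcb and Sst lie above 0 on the name axis.

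Within 1 agent the same grouping gave different members. Fits within an agent took the libraries as samples, with no term for the animal. In noninjected libraries grouped by deposited name, Sst (log2 fold 0.83, SE 0.21) and Calcb (0.43, SE 0.12) were higher in animals named icKO and past the threshold, 2 of 10 members, where 8.39% of genes were. This contrast helped to choose the members, so the count is no test of them. DESeq2 put these 2 and Nppb (lower) past it, with 12.4% of genes. The ranges still overlapped, as they did for all 10 members, while 8.37% of genes had no overlap. Of 18 genes for peptide processing and dense-core vesicles, 11 had a positive and 7 a negative fold in the same libraries (median 0.23, all genes -0.01), and 7 were past the threshold, all higher. Among them were Pcsk1n (0.95, SE 0.18), an inhibitor of the prohormone convertases, Pcsk2 (0.43, SE 0.09), such a convertase, Cpe (0.37, SE 0.08), a carboxypeptidase, and Pam (0.30, SE 0.08), which amidates peptides. The summed sensory neuron genes moved alongside, with a median of 18690 CPM (15210 to 21540) in noninjected libraries named icKO against 15280 CPM (13350 to 17480) in those named control, and their part in this result was not tested.

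The call of Calcb was lost without the noninjected library of control 4 (0.33, with 8.57% of genes called), without the animals labelled control 1, control 2, control 3, icKO 1, icKO 2 or icKO 3, and with the title number as a block (-0.02). That of Sst was lost without the animals labelled control 2, control 3, icKO 1 or icKO 3, without the sex term (0.53) and with that block (0.49).

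In formalin libraries grouped by deposited name, Gal and Adcyap1 did not overlap, 2 of 10 members against 5.74% of genes. Gal was at 21.8, 22.8, 37.6, 43.7 and 53.5 CPM in animals named control and at 7.72, 10.6, 13.9 and 19.3 CPM in those named icKO (log2 fold -1.62, SE 0.48). Adcyap1 was at 124.7 to 208.9 CPM against 91.5 to 123.5 CPM (-0.65, SE 0.21), with hardly a gap between the groups. In edgeR's fit 0 of 10 members passed, with 3.89% of genes, and DESeq2 put both past the threshold, with 6.82% of genes. Without the noninjected library of control 4 both passed in edgeR as well, with 3.22% of genes. Without the animal labelled control 1, Adcyap1 (-0.87) and Calca (-0.48) passed, with 8.33% of genes, and without control 4 Gal did (-1.74), with 2.82%. In these libraries the summed neutrophil genes were at 203.8 to 946.3 CPM in animals named control and 795.3 to 3677 CPM in those named icKO, and the erythroid genes at 174.6 to 365 against 435.8 to 1836 CPM. Skeletal muscle genes reached 2439 CPM in the formalin library labelled icKO 5. Their part in the lower Gal and Adcyap1 was not tested.

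By title, 0 members passed within either agent, as did 0.0% of genes. DESeq2 put Uts2b past the threshold in formalin libraries (-3.69), with 0.0905% of genes, and 0 members in noninjected ones, with 0.00566%. In formalin libraries Cartpt and Uts2b did not overlap between the titles, 2 of 10 members against 1.87% of genes, and all 10 members had a negative fold, with a median of -0.31 (all genes -0.0). So had all 10 peptidergic nociceptor genes (median -0.31), all 12 itch and non-peptidergic genes (-0.20) and 13 of 18 processing genes (-0.03). Under 18 alternatives the sign of this fold turned in 4 for Sst (up to 0.06), 3 for Nppb (up to 0.19) and 2 for Nmb (up to 0.02). In noninjected libraries 0 of 10 members were free of overlap, against 0.821% of genes, and 9 of 10 had a negative fold, with a median of -0.35 (all genes -0.02), and Sst was at 0.41 (SE 0.27). Of the peptidergic nociceptor genes, 8 of 10 had a negative fold in these libraries (median -0.35).

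Receptors of these peptides and other peptides were also counted, from lists chosen with earlier results known. Of 26 receptor genes, 22 were tested in the animal totals and 0 passed for the name or the title. In formalin libraries grouped by name, 1 of 19 was past the threshold as lower, the somatostatin receptor Sstr1 (-1.86, SE 0.39), and 1 as higher, Ramp1 (1.28, SE 0.34), which makes the CGRP receptor together with Calcrl. Of 24 other neuropeptide genes, 13 were tested in the animal totals and 0 passed for either record. Scg2, a secretogranin precursor, was lower in formalin libraries named icKO (-0.57, SE 0.14), as was the vesicle gene Scg3 (-0.40, SE 0.11), 1 of 18 processing genes. In these libraries 8 of the other neuropeptide genes were tested, and 1 passed. The share of all genes past the threshold in formalin libraries by name was 3.89%. Counts of 1 or 2 in lists this short are too few to set against that share, and nothing is read from them.

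With the filter on low counts, all 19 libraries and sex in the fit, no member or gene passed edgeR's test for formalin. Leaving out the animal labelled control 1 changed this in animals named icKO, as given below. Over all 19 libraries, with sex and title in the fit, the folds of the 10 members (formalin minus noninjected) lay between -0.04 (Sst, SE 0.20) and 0.27 (Nppb, SE 0.15), with 0 of 10 members and 0.0% of genes past the threshold in edgeR's quasi-likelihood test. An unadjusted p under 0.05 was reached by 0 members and by 515 genes, and DESeq2 called 0 genes. The intervals still allow sizeable changes in the members that vary most: for Gal the fold was 0.12 (95% interval -0.55 to 0.79, from t with the residual degrees of freedom) and for Uts2b 0.23 (-0.91 to 1.36). The edgeR fit held no term for the animal, so these are not intervals of a within-animal difference.

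Each animal gave both libraries, so the direction can also be read within animals. In the 5 animals named control, Gal was higher with formalin in 5 of 5, going from 30.8 to 37.6, from 29.0 to 43.7, from 24.5 to 53.5, from 15.4 to 21.8 and from 15.8 to 22.8 CPM in control 2, 3 and 5 and icKO 2 and 3. Adcyap1, Cartpt, Calca and Calcb were also higher in 5 of 5, as were 4.54% of the genes. None of the 10 was lower in 5 of 5, where 7.57% of genes were. The median within-animal log2 difference was 0.53 for Gal, 0.43 for Cartpt, 0.42 for Adcyap1, 0.14 for Calcb and 0.09 for Calca. In edgeR none of these passed (Gal 0.59, SE 0.43, and Adcyap1 0.43, SE 0.19), with 0 of 10 members and 0.0% of genes. At an unadjusted p under 0.05 stood 686 genes in edgeR, and DESeq2 called 0 genes. Neither fit paired the libraries of an animal, so these standard errors hold the spread between animals. The mean within-animal log2 difference was 0.61 (SD 0.31) for Gal and 0.44 (SD 0.12) for Adcyap1. With the animal as a replicate block no formalin call changed. Without the filter, edgeR called 4 of 10 members, Gal (0.58), Adcyap1 (0.42), Cartpt (0.73) and Uts2b (0.72), with 1.1% of genes. These folds hardly differ from those with the filter, while 39085 genes were tested where 17931 were with it. The calls thus changed with the filter while the folds hardly did, and the cause was not tested.

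In the same 5 animals other lists leaned one way. All 10 peptidergic nociceptor genes had a positive formalin fold (median 0.22), where the median of the 10 members was 0.27. So had 15 of 18 processing genes (0.11), 10 of 12 itch and non-peptidergic genes (0.15) and 10 of 12 sensory neuron genes (0.12). In contrast, 10 of 10 Schwann cell genes (median -0.34), 8 of 8 adipocyte genes (-2.08) and 10 of 12 lymphocyte genes (-0.41) had a negative one. In each list 0 were past the threshold. The summed Schwann cell genes were at 4992 to 6183 CPM without injection and 3735 to 5777 CPM with formalin, and the adipocyte genes at 15.3 to 258.3 and 16.7 to 38.4 CPM. Their part in the higher peptide levels was not tested.

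In the 4 animals named icKO with both libraries, Gal was lower with formalin in 3 of 4. It went from 65.3 to 19.3 CPM in control 4, from 15.2 to 7.72 in icKO 4, from 11.3 to 10.6 in icKO 5 and from 13.1 to 13.9 in control 1. In these 4 animals 0 of 10 members were higher in all and 0 lower in all, against 8.79% and 10.5% of genes. Nppb, which encodes the natriuretic peptide BNP, went up in 3 of 4, from 14.9 to 33.2 CPM in control 4 and from 14.8 to 28.5 CPM in icKO 5, with 15.7 to 17.9 CPM in control 1 and 14.2 to 14.0 CPM in icKO 4. Its fold in the same unpaired fit was 0.63 (SE 0.19). It did not pass (adjusted p = 0.0959, edgeR), nor did any member or gene (0 of 10 and 0.0%). At an unadjusted p under 0.05 stood 4170 genes, and DESeq2 called 1120 genes (6.25%), Nppb among them. Without the filter, edgeR called 4 of 10 members, Gal (-0.84), Cartpt (-0.67), Uts2b (-0.76) and Nppb (0.63), with 5.64% of genes. These folds too hardly differ from those with the filter. Without the animal labelled control 1, edgeR called Nppb (0.76) and 11.2% of genes (1990), where it called 0 with that animal. In animals named icKO the summed neutrophil genes had a median of 1508 CPM with formalin and 831.6 CPM without injection, and the sensory neuron genes 14380 against 18690 CPM. Their part in these values was not tested.

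The difference between the formalin folds of the named genotypes was fitted as an interaction, again with no term for the animal. It was -1.43 (SE 0.64) for Gal, -1.40 (SE 0.60) for Cartpt, -0.61 (SE 0.28) for Adcyap1 and 0.70 (SE 0.26) for Nppb. None of the 10 members was past the threshold in edgeR, nor was any gene (0.0%), and 4201 genes had an unadjusted p under 0.05. DESeq2 called 770 genes (4.29%) and 0 members, and edgeR called 1762 genes (9.89%) and 0 members without control 1. The median interaction fold of the 10 members was -0.47. All 12 sensory neuron genes had a negative interaction fold as well (median -0.44). So had 9 of 10 peptidergic nociceptor genes (-0.63) and 15 of 18 processing genes (-0.24), whereas all 10 Schwann cell genes had a positive one (0.31). Without the noninjected library of control 4 the formalin fold of Gal in animals named icKO went from -0.84 to -0.04 and its interaction to -0.64, and that of Uts2b went from -0.75 to 0.69.

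**Figure D3:**
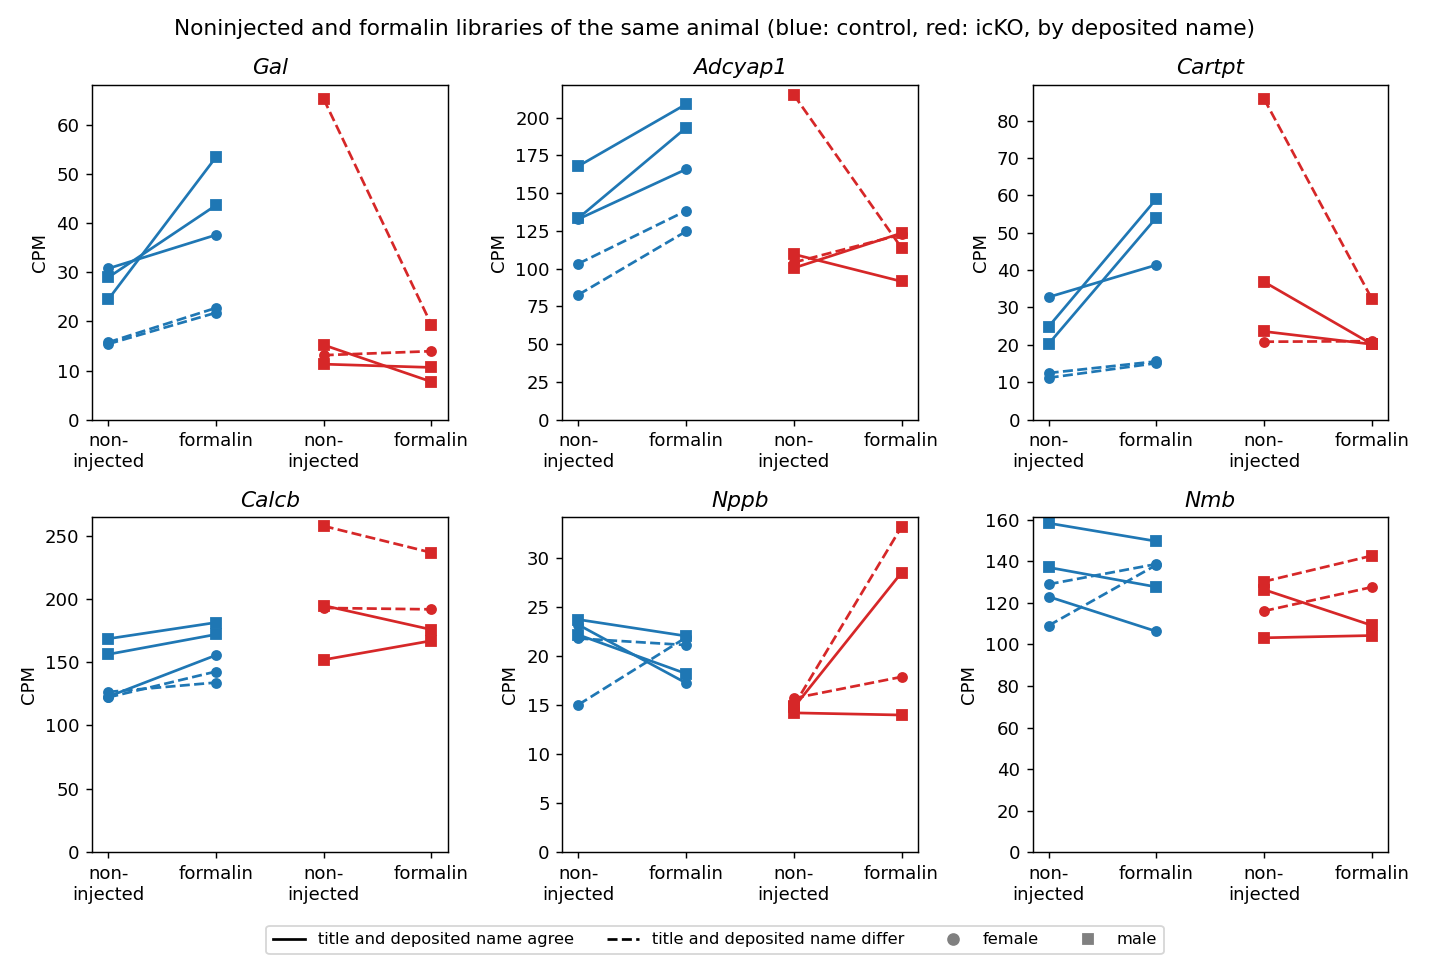
CPM of 6 members in the noninjected and formalin libraries of the same animal, joined by a line, for the 5 animals named control and the 4 animals named icKO that have both libraries. Gal, Adcyap1, Cartpt and Calcb go up in every animal named control, and the steep dashed line among the animals named icKO is control 4, with Gal at 65.3 and 19.3 CPM.

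Sst differed between the sexes. Its animal totals in the 5 females were 9.41, 6.07, 12.9, 8.66 and 7.84 CPM (control 1 and 2, icKO 1, 2 and 3), and in the 5 males 2.89, 5.74, 3.03, 4.80 and 3.41 CPM (control 3, 4 and 5, icKO 4 and 5). All males lay below all females, which held for 1 of 10 members and for 1.96% of genes. With both genotype records in the fit, Sst fell in males by 1.27 on the log2 scale (SE 0.17; Benjamini-Hochberg adjusted p = 0.0196 by edgeR), a level of 3.97 ± 1.24 against 8.98 ± 2.53 CPM (SD, n = 5 and 5). It was 1 of 14 genes past the threshold of 19956 tested (0.0702%), most of them X- or Y-linked. The values rest on 28 to 209 counts in each library.

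The direction of Sst was the same within the animals named control and within those named icKO, without overlap in each. Within animals named control 7 members did not overlap between the sexes, as did 28.4% of genes with 3 females and 2 males. Both of these males are titled control and 2 of the 3 females titled icKO, so sex and title cannot be told apart for most of these animals. Within those named icKO 2 members did not overlap (Sst and Cartpt), as did 27.1% of genes. The fold of Sst stayed negative in all 16 alternatives (-1.43 to -1.10). Its call was lost in leave-one-out fits without control 1 (adjusted p = 0.0876 in edgeR's test), control 3 (0.121), control 5 (0.057), icKO 3 (0.0785) or icKO 4 (0.0765), and without the noninjected library of control 4 (0.0555), and DESeq2 kept it (4.27e-08).

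Sst and Nppb are both made by itch neurons, and 12 other genes of itch and non-peptidergic neurons were counted beside them. All 12 had a negative male fold (median -0.23, all genes -0.0), with 0 past the threshold. The nearest were Htr1f (-0.44, SE 0.11), a serotonin receptor, and Cysltr2 (-0.48, SE 0.13), a leukotriene receptor. Nppb did not share the direction, with 0.18 (SE 0.13). Tac1 at 0.43 (SE 0.10), Cartpt at 0.63 (SE 0.22) and Uts2b at 1.77 (SE 0.43) were higher in males and did not pass (adjusted p = 0.235, 0.317 and 0.271 in edgeR's test). DESeq2 called Sst, Tac1 and Uts2b, 3 of 10 members, and 0.872% of genes.

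**Figure D4:**
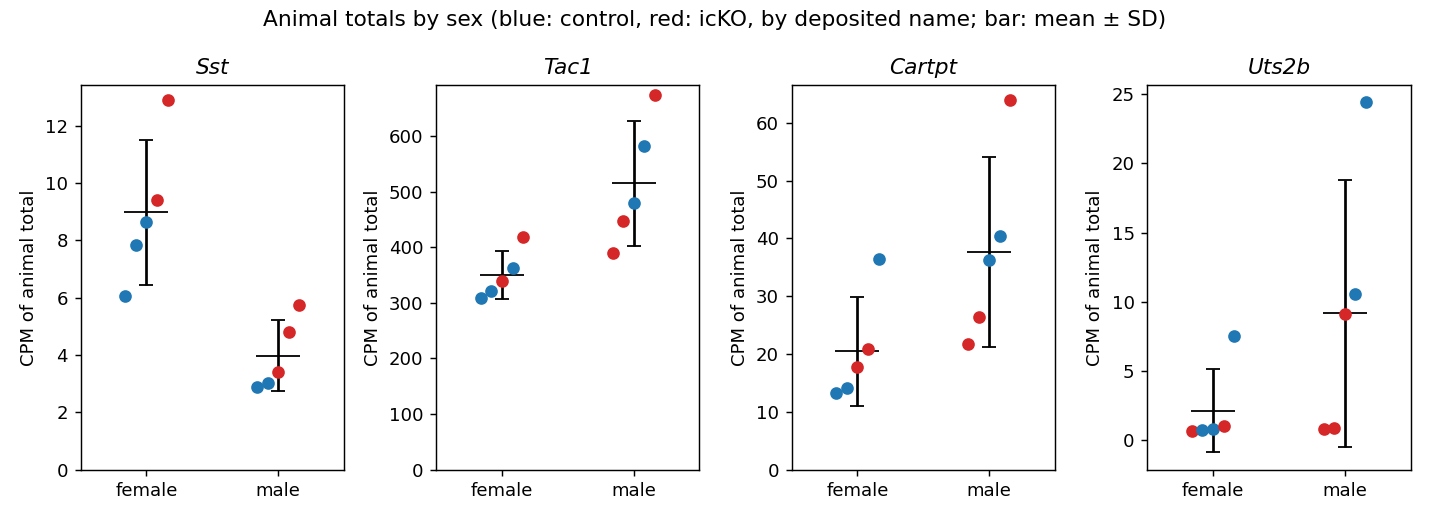
Animal totals (CPM) of Sst, Tac1, Cartpt and Uts2b in 5 females and 5 males, each point 1 animal coloured by deposited name, with mean and SD. Sst lies at 6.07 to 12.9 CPM in females and 2.89 to 5.74 CPM in males, with no overlap, while the other 3 overlap between the sexes.

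In the animal totals Nppb and Nmb showed no fold over 3 standard errors in either record. Nppb was at 13.9 to 23.0 CPM and Nmb, which encodes neuromedin B, at 103.7 to 154.3 CPM over the 10 animals. Both groups overlap in either record for both genes. In the fit of both records Nppb was at -0.10 (SE 0.13) for the title and -0.23 (SE 0.13) for the name, and Nmb at -0.12 (SE 0.09) and -0.18 (SE 0.09). In noninjected libraries by name Nppb was at -0.54 (SE 0.18), a larger size than that of Calcb there, and in formalin libraries at 0.15 (SE 0.19).

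Across the 19 libraries, members varied with each other to different degrees. The Pearson correlation of log2 CPM was 0.90 for Calca with Adcyap1, 0.89 for Gal with Calca and with Adcyap1, 0.86 for Gal with Uts2b and 0.83 for Tac1 with Cartpt. It was 0.37 for Calca with Calcb and -0.50 for Sst with Tac1. These are descriptions, since the points share animals, scaling and genotype. Among 13230 genes compared, the gene most like Gal was Chrnb4 (r = 0.95), followed by Chrna3 (0.92), both nicotinic acetylcholine receptor subunits, and Gfra3 (0.91), the artemin co-receptor. Gap43, a growth cone gene, was the most like Calca (0.92), Adcyap1 (0.91) and Uts2b (0.89). Negr1 came first for Cartpt (0.91), Vps11 for Sst (0.89), Isl1 for Tac1 (0.86), Tes for Calcb (0.86), Shtn1 for Nppb (0.84) and Rhebl1 for Nmb (0.83).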

How the data were processed

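Per the labels' protocols, RNA was extracted with TRIzol and libraries came from a non-stranded TruSeq kit. The tools named, per the submitters' processing notes, were STAR 2.7.8a, featureCounts 2.0.1 and bcl2fastq 2.20.0.422, with build GRCm39. The annotation and the handling of strand and multiple matches: not given in the sources used here. The authors deposited raw counts per Ensembl gene. Names were found for 52083 IDs (94.0%). Exon lengths came from an annotation of another build, GRCm38, used for no GRCm39 coordinate.

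edgeR 4.0.16 (R 4.3.3; quasi-likelihood F test, robust, TMM, filterByExpr, sex as covariate) was fitted to all genes, and p was adjusted by Benjamini-Hochberg (threshold 0.05). Standard errors came from the fold and the F statistic. DESeq2 1.42.0 was an alternative. Libraries under 1000000 counts were left out, which removed 1 of 2829 counts. Alternatives were another scaling, no filter, no sex term, replicate blocks, and leaving out animals or single libraries. The fits were tested on simulated data with independent samples and the same dispersion for every gene. That test does not cover paired libraries, outlying libraries or genes with few counts. Members, lists and alternatives were chosen with earlier results of these data known. Named genes are the members, Prdm12, the 3 genes most like each member, and up to 4 genes past the threshold (else 2) of each list.

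The deposited names give both libraries of an animal the same animal number. Within such pairs, deviations from group means had correlations of -0.11 to 0.54 over 9 pairs, 8 of them over 0.1. Fits of the animal totals compare animals, of which 5 per group limit the precision. Fits within an agent and for formalin took the 19 libraries as samples, with no term for the animal. Their standard errors and calls do not account for both libraries coming from the same animal.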

Additional observations from a re-analysis of the deposited data

Results flagged for a closer look

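Of 80 groups of 4 or more libraries checked, 10 held a library far from the rest of its group, where the 95% critical value used gives about 1 in 20 by chance in a single group. The groups reuse the same libraries by title and by name and are not independent. In 5 of them it was the noninjected library labelled control 4 among the libraries named icKO: Gal at 65.3 CPM, Tac1 at 779.6 CPM, Adcyap1 at 215 CPM, Cartpt at 85.8 CPM and Uts2b at 11.8 CPM, each the highest of the group. Cartpt in that library, at 85.8 CPM, was also far above the other noninjected libraries titled control. The formalin library of the same animal was the highest of its group named icKO for Cartpt, at 32.4 CPM, and for Uts2b, at 5.31 CPM.

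Nppb stood apart in the remaining groups. At 21.8 CPM the noninjected library labelled icKO 2 was far above the others titled icKO, and at 15.1 CPM the noninjected library labelled icKO 3 was far below the others named control.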

How the results depend on the processing

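Limits come first. With 5 animals a group, and the animals labelled control 1 and control 4 alone in titled control with named icKO, counts of genes moved with single libraries, and Sst and Uts2b rest on few counts. The cause of the moves below was not tested. Values are genes past the threshold, then members where they moved. With DESeq2 they were 64 and 4 by title in animal totals, 806 and 1 by name, 535 and 2 for the name term, 63 and 6 for the title term, 1 gene by title in noninjected libraries, 16 and 1 by title in formalin libraries, 1223 and 2 by name in formalin libraries, 1120 and 1 for formalin in animals named icKO, 770 genes for the interaction, and 174 and 3 for sex. Without a filter beyond a count above 0 they were, in the same order, 851 and 5, 1811 and 5, 1499 and 4, 741 and 6, 490 and 5, 1274 and 5, 2129 and 4, 2203 and 4, 2519 and 5, and 994 and 5. They were also 2421 and 5 by name in noninjected libraries, 188 genes for formalin over all animals, and 430 and 4 for formalin in animals named control. Without the icKO 5 formalin library, the name gave 341 and 1 in animal totals, 245 genes as a term, 2385 in noninjected and 205 in formalin libraries. Without the sex term, 1 member passed by name in noninjected libraries and 1052 genes in formalin libraries. Without the control 4 noninjected library, an alternative chosen after seeing the data, members past the threshold were 1 by name in animal totals, 1 for the name term, 1 for the title term (of 3 genes), 1 by name in noninjected and 2 in formalin libraries, and 0 for sex.

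With the title number as a replicate block, the name gave 60 genes in animal totals, 16 as a term, 108 and 0 members in noninjected libraries, where Calcb turned to -0.0204, and 2530 and 1 in formalin libraries. That number is only a number: same-numbered deviations correlated at -0.16 to 0.33, and 1 of 5 controls correlated best with its own. The animal as a replicate block changed no formalin call, but the formalin folds of Sst (0.0393) and Cartpt (0.112) over all animals changed sign. They also did without the icKO 5 formalin library (0.0329 and 0.0213) and without the control 4 noninjected library (0.0584 and 0.215). In animals named icKO, the formalin fold of Calcb turned to 0.00305 without the sex term, 0.05 without the icKO 5 formalin library and 0.0922 without the control 4 noninjected library, where Tac1 (0.0452), Adcyap1 (0.0691) and Uts2b (0.692) turned too. The interaction of Nmb turned to -0.0118 with the small library.

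Leaving out 1 animal at a time gave 0 to 11 genes and 0 to 1 members by title in animal totals, 76 to 278 and 0 to 1 by name, 64 to 436 and 0 to 1 for the name term, and 0 to 11 and 0 to 2 for the title term. It gave 0 to 1 and 0 to 1 by title in formalin libraries, 345 to 2129 and 0 to 3 by name in noninjected and 66 to 1485 and 0 to 2 in formalin libraries. For formalin in animals named icKO it gave 0 to 1990 and 0 to 1, for the interaction 0 to 1762 genes, and for sex 7 to 16 and 0 to 1. Formalin folds over all animals changed sign within -0.0453 to 0.402 for Gal, -0.0246 to 0.0753 for Calca, -0.0365 to 0.13 for Tac1, -0.147 to 0.0279 for Sst, -0.0056 to 0.0808 for Nmb and -0.117 to 0.268 for Cartpt. In animals named control they ran from -0.205 to 0.0172 for Nppb and -0.0639 to 0.0554 for Nmb. In animals named icKO they ran from -0.0835 to 0.0128 for Calcb, -0.389 to 0.0684 for Adcyap1 and -0.0344 to 0.113 for Nmb. The interaction of Nmb ran from -0.0544 to 0.107 and the male fold of Gal from -0.136 to 0.479.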
